A study of Arabidopsis thaliana with 15 samples.

Results

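The genes described here kept nearly their starting transcript level through the first hours of an immune response in Arabidopsis thaliana leaves and then dropped late, in plants that carry the resistance gene RPS2. They were chosen from the deposited array values of Col-0 alone. A gene qualified where the mean of 3 arrays at 6 h lay within 0.5 of the mean at 0 h on the log2 scale, and the mean at 10 h lay at least 1 below that at 6 h. Of 13513 probe sets that the platform's annotation pairs with a single gene, 67 qualified, each for a different gene. The limit of 200 was not reached, so every gene that met the limits is included.

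In this immune system the bacterial effector AvrRpt2 cleaves a plant protein that the resistance protein RPS2 guards, and RPS2 then starts a strong response that often ends in local cell death. Plants without RPS2 still sense the bacterium through pattern receptors at the cell surface. Leaves that mount either response are known to lower transcripts of growth and photosynthesis while those of defence rise.

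The plants were the rps2 mutant, sampled at 10 h and 0 h, and the Col-0 wild type, sampled at 0, 6 and 10 h, each counted from infiltration. The bacterium, Pseudomonas syringae pv. maculicola, delivered AvrRpt2, and each group had 3 biological replicates (15 arrays). All plants, controls included, were 4 weeks old, had grown at 22 °C with 12 h of light and 12 h of dark, and received bacteria at OD 0.01 in 10 mM MgSO4 into mature leaves. The labels name no rps2 allele and no mock-infiltrated group, so a change over time carries the infiltration and the clock time together. A whole infiltrated leaf was measured, and fewer cells of a type and less RNA per cell cannot be told apart.

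Each value is a log2 difference from the median of that probe set over the 15 arrays, and it carries no absolute level. Levels of different genes can therefore not be compared, the leaf label could not be checked by the presence of its markers, and precision is limited by the number of arrays. Of 25 cell type markers listed for such a check, 5 had a named probe set. RCA, the Rubisco activase gene of mesophyll, changed by -1.87 between 6 h and 10 h in Col-0, while FMA of guard cells, TRY of trichomes, SWEET11 of phloem and PYK10 of roots changed by -0.01, 0.21, -0.41 and 0.36. Their part in the results below was not tested.

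The array labelled rps2 10 h replicate 3 went against its label. Over all 22746 probe sets, its difference from the mean of the rps2 0 h arrays had quartiles of -0.08 and 0.08. UGT76B1, a glycosyltransferase gene that is no member, read -7.56 on it, 0.03 and 0.00 on replicates 1 and 2 of its group, and -7.69, -7.72 and -7.61 on the rps2 0 h arrays. The array may therefore have been mislabelled, which was not tested, and each value that includes it would then mix times. Among the 67 genes it lay nearer to the mean of the rps2 0 h arrays than to replicates 1 and 2 of its own group in 57, and it differed from that 0 h mean by -0.36 to 0.40. Changes in rps2 are therefore given both over all arrays and without this one. On the Col-0 10 h arrays the poly-A controls, spiked into the RNA ahead of labelling, stood at 0.92, 1.13 and 0.90, against -0.32 to 0.01 on the Col-0 6 h arrays. Every change is thus relative to the other transcripts of the leaf.

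Over the 67 genes, the median value was 0.10, 0.15 and 0.14 on the Col-0 0 h arrays, 0.05, 0.18 and 0.07 at 6 h, and -1.02, -1.23 and -1.12 at 10 h. The 10 h arrays were below all 6 Col-0 arrays of the earlier times in all 67 genes. The rule fixes most of this separation, which 18.5% of all probe sets showed. The change between 6 h and 10 h ran from -3.62 to -1.01 with a median of -1.22, and for 54 genes it lay between -1.5 and -1. Only 5 genes had a drop of at least 2.

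**Figure D1:**
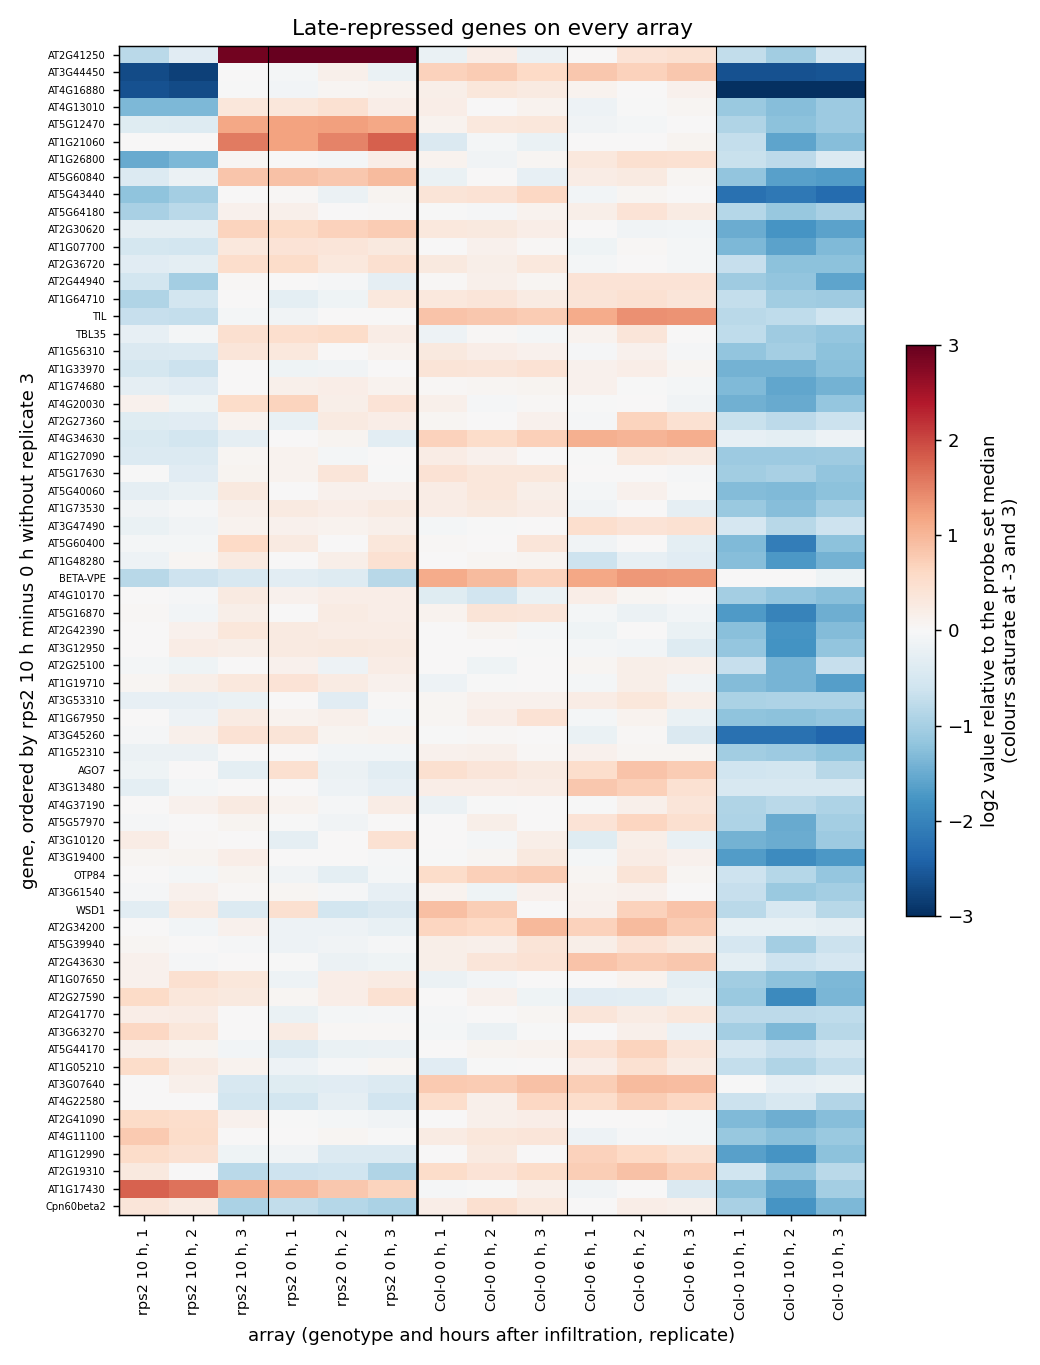
Log2 value of each of the 67 genes (rows) relative to its probe set median on each of the 15 arrays (columns), ordered by the rps2 change without replicate 3. The 3 Col-0 10 h columns are blue or near white in every row, and the rps2 10 h columns of replicates 1 and 2 are blue near the top and light red at the bottom, while replicate 3 has the colours of the rps2 0 h columns.

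The name of the set holds only within the width of its own limit. The change at 6 h against 0 h was above 0 in 37 genes and below 0 in 30, from -0.49 to 0.49. In a fit of all arrays with limma, 11 of these changes passed an adjusted p of 0.05 upwards and 6 downwards, against 25.5% and 28.6% of all probe sets. The small early change and the late drop were both used to choose the genes, so nothing follows from these counts. TIL, at 0.47 above 0 h, was among the 11, and OTP84, at -0.49, was among the 6 that were already lower at 6 h.

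Several genes lay close to the limits on either side. The 5 genes just inside the limit on the late drop lay between -1.023 and -1.007 (AT5G39940 and AT1G73530 at the ends), and the 5 just outside lay between -0.998 and -0.994 (AT3G21465 and AT5G46450 at the ends). The 5 nearest inside the limit on the early change ran from OTP84 at -0.493 to AT1G12990 at 0.473. Just outside it stood AT4G25870 at -0.5, AT1G64380 at 0.501 with a late change of -2.178, and AT1G63880 at -0.51 with -1.934.

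The reference tables give a symbol to 7 of the 67 genes, and the other 60 carry a locus code only. Roles are given for these 7 genes alone. Classes of function were matched by symbol and synonym over all single-gene probe sets. They placed Cpn60beta2 among 34 probe sets of plastid gene expression and protein folding, TBL35 among 72 of cell wall and cuticle, and AGO7 among 15 of RNA processing. The classes of light reactions (57 probe sets), transcription regulators (82), glucosinolate and phenylpropanoid metabolism (84), transporters (52), hormones (27) and immune receptors and defence (33) held 0 of the 67 genes. Most probe sets have no symbol, so these counts cover a small part of each function. The matching also left OTP84 and WSD1 out of every class, although their roles given below concern plastid transcripts and the cuticle. A count of 0 therefore does not show that the 67 genes lack such a function.

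TIL (AT5G58070) encodes a lipocalin that is known to protect membranes in heat and against oxidative damage. Its values in Col-0 were 0.86, 0.80 and 0.75 at 0 h, 1.12, 1.36 and 1.34 at 6 h, and -0.81, -0.77 and -0.59 at 10 h. The rps2 arrays read -0.68, -0.72 and -0.05 at 10 h, the last being replicate 3, against -0.11, 0.01 and 0.00 at 0 h. TIL was thus high in Col-0 alone at the earlier times, and replicates 1 and 2 of rps2 reached the Col-0 10 h values. Between 10 h and 0 h in rps2 it changed by -0.45 ± 0.15 over all arrays (SE, n = 3 each, limma adjusted p = 0.0558) and fell by 0.66 ± 0.10 without replicate 3 (n = 2 and 3, limma adjusted p = 2.84e-05). With the arrays centred on the poly-A controls, that fall was -0.35 and did not pass (limma adjusted p = 0.17). After repeated quantile normalization, which stretches the values of replicates 1 and 2 as described below, it was -2.28.

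Cpn60beta2 (AT3G13470), a subunit of the chaperonin that folds proteins in the plastid, went the other way in rps2. Its rps2 arrays read 0.37, 0.24 and -0.96 at 10 h, against -0.75, -0.85 and -0.95 at 0 h. In Col-0 it read 0.19, 0.48 and 0.32 at 0 h, 0.00, 0.21 and 0.16 at 6 h, and -0.98, -1.77 and -1.34 at 10 h. The rps2 0 h arrays lay just above the Col-0 10 h arrays, and replicates 1 and 2 of rps2 at 10 h lay among the early Col-0 arrays. The rps2 change was 0.73 ± 0.29 over all arrays (limma adjusted p = 0.0831), and without replicate 3 the gene rose by 1.15 ± 0.17 (limma adjusted p = 2.88e-05), the largest rise among the 67 genes in that fit. On the poly-A scale the rise was 1.47.

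AGO7 (AT1G69440) encodes an Argonaute protein that acts with a microRNA to make trans-acting small RNAs, which time leaf maturation. Its Col-0 values were 0.49, 0.36 and 0.26 at 0 h, 0.53, 0.86 and 0.75 at 6 h, and -0.60, -0.55 and -0.83 at 10 h. In rps2 it read -0.12, 0.00 and -0.29 at 10 h, against 0.47, -0.18 and -0.31 at 0 h. These rps2 groups overlapped, and the change did not pass the threshold with all arrays (-0.13 ± 0.17, limma adjusted p = 0.624) or without replicate 3 (-0.05 ± 0.18, limma adjusted p = 0.85).

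OTP84 (AT3G57430), a pentatricopeptide repeat protein needed to edit transcripts of the plastid genome, declined in 2 steps in Col-0. It read 0.54, 0.71 and 0.75 at 0 h, 0.06, 0.39 and 0.07 at 6 h, and -0.61, -0.85 and -1.15 at 10 h. In rps2 it read 0.00, -0.07 and 0.09 at 10 h, against -0.11, -0.29 and -0.05 at 0 h. All rps2 arrays lay below the Col-0 0 h arrays and above the Col-0 10 h arrays, and the change over time did not pass without replicate 3 (0.11 ± 0.14, limma adjusted p = 0.554) or over all arrays (0.16 ± 0.13, limma adjusted p = 0.416).

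BETA-VPE (AT1G62710) encodes a vacuolar processing enzyme, a cysteine protease best known for maturing storage proteins in seeds. In Col-0 it read 1.11, 0.94 and 0.70 at 0 h, 1.16, 1.29 and 1.28 at 6 h, and 0.02, 0.00 and -0.12 at 10 h. The rps2 arrays were lower than every Col-0 array, at -0.83, -0.62 and -0.47 at 10 h against -0.32, -0.38 and -0.83 at 0 h. Its rps2 change of -0.21 ± 0.14 without replicate 3 did not pass (limma adjusted p = 0.255), nor did that of -0.13 ± 0.14 over all arrays (limma adjusted p = 0.547). After repeated quantile normalization without replicate 3 it was -1.77 and passed (limma adjusted p = 1.17e-06). That scaling stretches the values of replicates 1 and 2 of rps2 at 10 h, as described below.

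WSD1 (AT5G37300), a wax ester synthase known from stem cuticle, had the widest error in rps2 of the 7 genes without replicate 3. In Col-0 it read 0.90, 0.73 and 0.00 at 0 h, 0.14, 0.68 and 0.86 at 6 h, and -0.81, -0.49 and -0.84 at 10 h. In rps2 it read -0.31, 0.25 and -0.41 at 10 h, against 0.49, -0.55 and -0.43 at 0 h, with overlapping groups. The change was 0.13 ± 0.31 without replicate 3 (limma adjusted p = 0.768) and 0.00 ± 0.31 over all arrays (limma adjusted p = 0.994).

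TBL35 (AT5G01620) belongs to the TRICHOME BIREFRINGENCE-LIKE family, whose members acetylate wall polysaccharides. Its Col-0 values were -0.15, 0.04 and -0.05 at 0 h, 0.11, 0.36 and 0.00 at 6 h, and -0.77, -1.06 and -1.17 at 10 h. In rps2 it read -0.25, -0.05 and 0.48 at 10 h, against 0.50, 0.55 and 0.22 at 0 h. Without replicate 3 it fell by 0.58 ± 0.14 (limma adjusted p = 0.00249), a change that became -0.26 on the poly-A scale and did not pass there (limma adjusted p = 0.311). Over all arrays it was -0.37 ± 0.17 (limma adjusted p = 0.14).

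**Figure D2:**
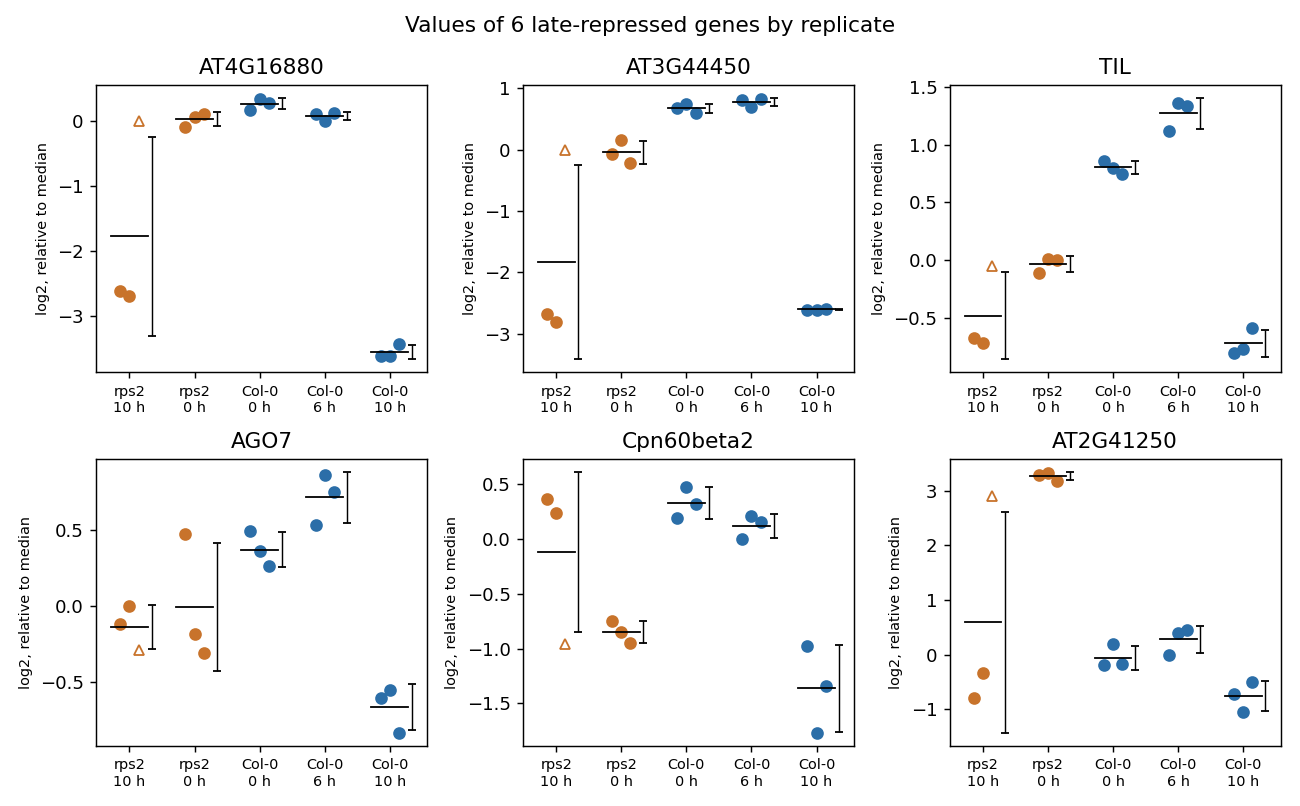
Log2 value relative to the probe set median for 6 of the genes, by group, with a point for each replicate, a line at the group mean of 3 arrays and a bar of 1 SD on each side. The open triangle is rps2 10 h replicate 3, which sits with the rps2 0 h points for AT4G16880, AT3G44450, TIL, Cpn60beta2 and AT2G41250, and the Col-0 10 h points are below the other Col-0 points in all 6 panels.

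The change from 6 h to 10 h in Col-0 was largest for AT4G16880 (-3.62) and AT3G44450 (-3.38), both known here by locus code. In Col-0, AT4G16880 read 0.17, 0.34 and 0.28 at 0 h, 0.10, 0.00 and 0.12 at 6 h, and -3.61, -3.62 and -3.43 at 10 h. In rps2 it read -2.62, -2.69 and -0.01 at 10 h, against -0.09, 0.06 and 0.11 at 0 h. It fell by 2.68 ± 0.09 in rps2 without replicate 3 (limma adjusted p = 3.84e-12), and it changed by -1.80 ± 0.51 over all arrays (limma adjusted p = 0.052).

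In Col-0, AT3G44450 read 0.68, 0.75 and 0.60 at 0 h, 0.81, 0.70 and 0.82 at 6 h, and -2.61, -2.61 and -2.59 at 10 h. In rps2 it read -2.68, -2.80 and 0.00 at 10 h, against -0.07, 0.16 and -0.21 at 0 h. Replicates 1 and 2 of rps2 stood as low as Col-0 at 10 h, a difference of -0.14 (0.78 with replicate 3). Without replicate 3 it fell by 2.70 ± 0.10 (limma adjusted p = 8.45e-12), and over all arrays it changed by -1.78 ± 0.53 (limma adjusted p = 0.052). Without replicate 3 both genes also fell on the poly-A scale, with changes of -2.36 and -2.38, and after repeated quantile normalization, with -4.91 each.

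Of the next genes in order of the late drop, AT5G43440 had a Col-0 change of -2.23 and also fell in rps2 without replicate 3, by 1.08 ± 0.10 (-0.71 over all arrays). AT1G12990 had a Col-0 change of -2.13 and rose in rps2 in that fit, by 0.82 ± 0.15 (0.60 over all arrays). AT3G45260 (Col-0 change -2.10) and AT3G19400 (-1.86) did not pass in rps2, at -0.13 ± 0.13 and 0.09 ± 0.11 (0.00 and 0.13 over all arrays). The strongest late drops thus included genes with each of the outcomes in rps2. The rps2 change spans 0 h to 10 h, because rps2 was not sampled at 6 h. Whether a change in rps2 came early or late therefore cannot be told. From 0 h to 10 h in Col-0, AT5G43440, AT1G12990, AT3G45260 and AT3G19400 changed by -2.72, -1.65, -2.29 and -1.87.

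AT2G44940 (Col-0 change -1.69) and AT5G60840 (-1.68) fell in rps2 without replicate 3, by 0.68 ± 0.15 and 1.18 ± 0.14 (-0.41 and -0.80 over all arrays). AT5G57970 (-1.68) did not pass there, at 0.02 ± 0.14 (0.06 over all arrays). AT2G44940 lost its call on the poly-A scale (-0.37, limma adjusted p = 0.145), and AT5G60840 kept it (-0.86, limma adjusted p = 8.03e-05).

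The comparison of rps2 at 10 h with 0 h asks how these genes behave where AvrRpt2 is not recognised by RPS2, and the change itself uses none of the Col-0 arrays that chose them. Its error is pooled over all groups, those arrays included. With no rps2 array at 6 h, the comparison cannot tell an early change from a late one. With all arrays, limma called 0 of 67 genes, against 0.0% of 22746 probe sets. At an unadjusted p of 0.05, 19 of the 67 were lower, against 20.5% of all probe sets, and 9 higher, against 17.9%. The median change was -0.12, beside -0.06 over all probe sets.

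Without replicate 3, 27 of 67 genes (40.3%) fell in rps2, against 26.9% of all probe sets, and 12 (17.9%) rose, against 21.2%. Of the 13513 single-gene probe sets, from which the genes were drawn, 24.9% fell and 18.9% rose. The share of rises was thus close to that background. The remaining 28 did not pass. The median change was -0.17, beside -0.07 over all probe sets, and the range was -3.83 to 1.15. By at least 1 on the log2 scale, 9 genes fell, against 6.75% of all probe sets, and 1 rose, Cpn60beta2, against 8.49%. The same fit made none of these calls with that array kept, while the other settings that kept it called either 0 or 12 to 40 of the 67 genes. The settings with 12 to 40 called 17.2% to 51.1% of all probe sets. With only the rps2 arrays, 37 genes passed without replicate 3 in place of 39, and 0 with it.

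The scaling moved the balance. With the arrays centred on the poly-A controls and replicate 3 left out, 12 genes (17.9%) fell, against 9.86% of all probe sets, and 15 (22.4%) rose, against 26.1%. There the median of the 67 genes was 0.14 and that of all probe sets was 0.24. Of the 27 that had fallen, 24 kept their sign on that scale and 12 their call. All 12 that had risen kept both. This scale raised every rps2 change by the same amount, so the sign of the rises could not change. For the same reason the median of the genes had to stay below that of all probe sets, and nothing follows from that order.

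Repeated quantile normalization of the centred values gives every array the same spread. On the deposited scale, the SD over all probe sets was 0.43 and 0.38 on replicates 1 and 2 of rps2 at 10 h, and 0.74 to 1.13 on the other arrays. The normalization thus stretches the values of replicates 1 and 2. Larger changes after it can come from this stretching, so nothing follows from their size. After it, without replicate 3, 30 genes (44.8%) fell, against 31.5% of all probe sets, and 17 (25.4%) rose, against 28.4%. Several falls were larger there, among them AT5G43440 at -3.17, AT2G44940 at -2.33, AT5G60840 at -1.78, AT4G13010 at -3.89, AT5G12470 at -2.46 and AT1G26800 at -3.72. The rises of AT1G12990, AT1G17430, AT4G11100, AT2G41090 and AT3G07640 were 1.53, 1.58, 1.31, 1.28 and 0.74. AT3G19400 passed there as a rise of 0.29 (limma adjusted p = 0.0236).

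**Figure D3:**
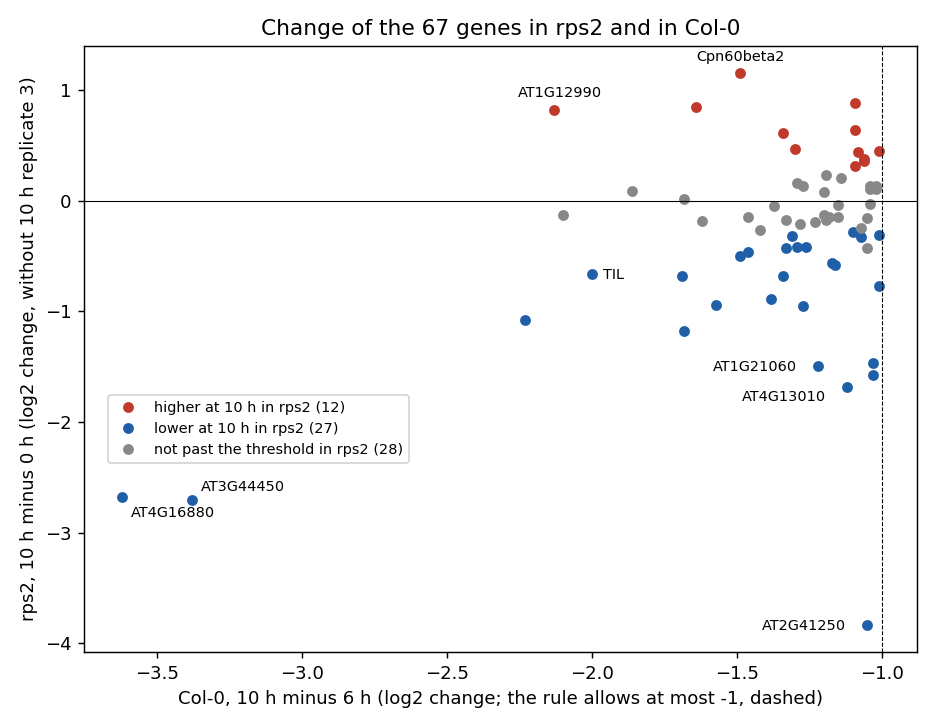
Log2 change in rps2 at 10 h against 0 h without replicate 3 (vertical) against the log2 change in Col-0 at 10 h against 6 h (horizontal), with 1 point for each of the 67 genes, coloured by the limma call in rps2. The axes cover different intervals, because rps2 was not sampled at 6 h. AT4G16880 and AT3G44450 stand alone at the lower left, 12 genes lie above the line at 0 as higher in rps2, and AT2G41250 lies lowest at -3.83.

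AT2G41250 had the largest change in rps2 of the 67 genes. It read -0.80, -0.34 and 2.90 in rps2 at 10 h, against 3.29, 3.33 and 3.18 at 0 h, while its Col-0 values were -0.19, 0.19 and -0.18 at 0 h, 0.00, 0.40 and 0.45 at 6 h, and -0.73, -1.05 and -0.51 at 10 h. The rps2 0 h arrays were the high ones, together with rps2 10 h replicate 3. It fell by 3.83 ± 0.18 in rps2 without replicate 3 (limma adjusted p = 1.16e-10), and it changed by -2.67 ± 0.68 over all arrays (limma adjusted p = 0.052). Its Col-0 change from 6 h to 10 h did not pass in the fit of all arrays (-1.05 ± 0.68, limma adjusted p = 0.289), while that of the other 66 genes did, against 17.2% of all probe sets, a contrast that the rule had used. That error is pooled over all groups. For this gene the SD was 2.02 in rps2 at 10 h with replicate 3, against 0.25 and 0.27 in Col-0 at 6 h and 10 h.

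A similar order of groups was seen in AT1G21060, AT5G12470 and AT5G60840. AT1G21060 read 0.00, 0.00 and 1.55 in rps2 at 10 h, against 1.20, 1.48 and 1.80 at 0 h, and fell by 1.49 ± 0.20 without replicate 3 (-0.98 over all arrays). AT5G12470 read -0.36, -0.38 and 1.15 at 10 h, against 1.20, 1.22 and 1.17 at 0 h, and fell by 1.57 ± 0.10 (-1.06 over all arrays). AT5G60840 read -0.42, -0.18 and 0.84 at 10 h, against 0.89, 0.80 and 0.94 at 0 h. These 3 genes stood higher in rps2 than in Col-0 at 0 h, by 1.73, 0.94 and 1.02.

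AT4G13010 and AT1G26800 fell in rps2 from a start nearer to that of Col-0, higher by 0.23 and 0.02. AT4G13010 read -1.34, -1.35 and 0.33 in rps2 at 10 h, against 0.35, 0.45 and 0.20 at 0 h, and fell by 1.68 ± 0.10 without replicate 3 (-1.12 over all arrays). Its Col-0 10 h arrays read -1.11, -1.27 and -1.08. AT1G26800 read -1.52, -1.35 and 0.06 in rps2 at 10 h, against 0.00, -0.06 and 0.19 at 0 h, and fell by 1.47 ± 0.12 (-0.98 over all arrays). Replicates 1 and 2 lay below its Col-0 10 h arrays, at -0.66, -0.78 and -0.40. From 0 h to 10 h in Col-0, AT4G13010 changed by -1.25. AT1G26800 changed by -0.63 over that interval, which did not pass (limma adjusted p = 0.0938).

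The 12 genes that rose in rps2 without replicate 3 did so by 0.31 to 1.15, and none of these rises passed over all arrays in the same fit. Other settings that kept all arrays called some of the 67 genes as higher. The counts were 4 with trended and robust variance, 9 after repeated quantile normalization, 9 on the poly-A scale and 12 with array weights. The same settings called 2221, 3699, 4127 and 5022 of all 22746 probe sets as higher. Among these genes, AT1G17430, AT1G12990 and AT2G41090 passed with trended and robust variance (limma adjusted p = 0.0453, 0.0457 and 0.0453). Cpn60beta2 and AT4G11100 passed after repeated quantile normalization (limma adjusted p = 0.0468 and 0.0417), and AT2G19310 on the poly-A scale (limma adjusted p = 0.041). After Cpn60beta2 came AT1G17430, which read 1.76 and 1.64 in replicates 1 and 2 of rps2 at 10 h, against 0.99, 0.81 and 0.66 at 0 h, with replicate 3 at 0.28 above the 0 h mean. Its Col-0 10 h arrays read -1.22, -1.55 and -1.02, and rps2 was higher there by 2.96 without replicate 3 (2.76 with it), the largest such difference of the set. It rose by 0.88 ± 0.15 without replicate 3, and it changed by 0.68 ± 0.18 over all arrays (limma adjusted p = 0.052).

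AT2G19310 read 0.30, 0.00 and -0.82 in rps2 at 10 h, against -0.61, -0.60 and -0.90 at 0 h, and rose by 0.85 ± 0.15 without replicate 3 (0.53 over all arrays). AT1G12990 read 0.56, 0.46 and -0.13 at 10 h, against -0.10, -0.41 and -0.40 at 0 h. In both genes replicates 1 and 2 lay above all rps2 0 h arrays. AT2G41090, AT4G11100, AT4G22580 and AT3G07640 rose by 0.61 ± 0.08, 0.64 ± 0.09, 0.47 ± 0.15 and 0.45 ± 0.10 in that fit, and changed by 0.47, 0.43, 0.28 and 0.27 over all arrays. On the poly-A scale without replicate 3, the rises of AT2G41090, AT4G22580 and AT3G07640 were 0.92, 0.78 and 0.77.

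At 10 h, replicates 1 and 2 of rps2 lay above all Col-0 10 h arrays in 58 of 67 genes, against 31.7% of all probe sets, and all 3 replicates did so in 55, against 27.3%. The Col-0 10 h arrays chose the genes for low values, so these counts are a description only. The median difference without replicate 3 was 0.94 (quartiles 0.63 and 1.40), and with it 1.06 (quartiles 0.66 and 1.53). The 9 exceptions were AT3G44450, TIL, AT1G64710, AT4G34630, BETA-VPE, AT5G64180, AT4G13010, AT2G41250 and AT1G26800.

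Set against Col-0 at 0 h, the mean of rps2 10 h replicates 1 and 2 was within 0.5 in 40 of 67 genes and lower by at least 1 in 9. With replicate 3 these counts were 45 and 6. Without it, this difference had quartiles of -0.61 and 0.05 over the 67 genes, against -0.32 and 0.19 over all probe sets. A value within 0.5 was thus not particular to these genes, which lay somewhat lower than all probe sets. At 0 h itself, rps2 was higher than Col-0 by at least 0.5 in 6 genes and lower by at least 0.5 in 12, with a median of -0.10 and a range of -1.43 (BETA-VPE) to 3.32 (AT2G41250). The quartiles at 0 h were -0.35 and 0.18, against -0.13 and 0.16 over all probe sets. Shares of all probe sets at these limits were not counted. A single clock-linked transcript outside the set, COR27, a cold- and light-regulated clock gene, read -5.42, -5.70 and -5.73 in rps2 at 0 h, against 0.46, 0.14 and 0.73 in Col-0. Other clock genes were not compared, and its part in these differences was not tested.

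Genes that fell by at least 1 at both steps in Col-0 were the nearest set to compare, with 311 probe sets of 310 genes. Their Col-0 change from 6 h to 10 h had a median of -1.34, close to the -1.22 of the late-repressed genes. From 0 h to 10 h, the interval of the rps2 change, the Col-0 medians were -3.62 and -1.32. The sets were thus not alike in their Col-0 drop over that interval. In rps2 without replicate 3, 83.6% of them were lower and 6.75% higher, with a median change of -0.90, where the late-repressed genes had 40.3%, 17.9% and -0.17. Over all arrays 0.0% of either set passed in each direction, with medians of -0.59 for the genes that fell at both steps and -0.12 for the late-repressed genes. The difference between the sets was not tested.

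**Figure D4:**
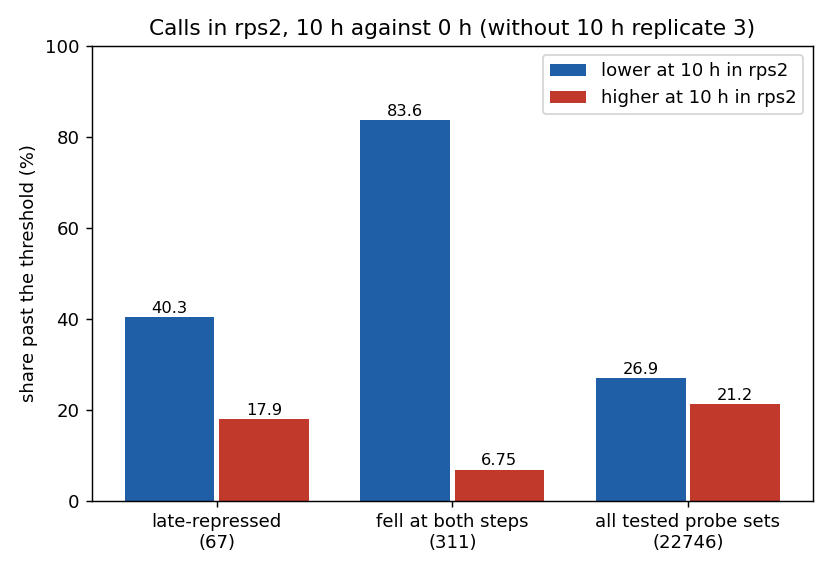
Share of genes or probe sets (%) past an adjusted p of 0.05 in rps2 at 10 h against 0 h without replicate 3, in blue where lower and in red where higher, for the 67 late-repressed genes, 311 probe sets that fell at both steps and all 22746 probe sets. The bars of the late-repressed genes are 40.3 and 17.9, and those of all probe sets 26.9 and 21.2. Over all arrays each share was 0.0.

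The late drop in Col-0 was also taken by rps2 call without replicate 3. The median change from 6 h to 10 h in Col-0 was -1.09 for the 12 that rose, -1.29 for the 27 that fell and -1.20 for the 28 that did not pass. Their rps2 values at 0 h relative to Col-0 had medians of -0.31, 0.02 and -0.11. The range at 0 h reached 3.32 among those that fell and 0.78 among those that rose.

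Along the chromosomes, 1 pair of the 67 genes lay side by side with no protein-coding gene between them, Cpn60beta2 and AT3G13480. AT3G13480 had a Col-0 change of -1.15 and did not pass in rps2. A further pair, AT1G07650 and AT1G07700, had 5 protein-coding genes between them. None of the 67 genes had a second single-gene probe set, so no drop could be checked with other probes. A further 63 probe sets met the same limits without being paired with a single gene, 3 with several genes and 60 with no entry, and they are not described here.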

How the data were processed

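The deposited table holds log2 values that the authors made with RMA, per the submitters' processing notes, and the values show a median of exactly 0 for each probe set over the 15 arrays. Of 22810 probe sets, 64 controls were set aside and 22746 were tested. Gene names came from the platform annotation and the TAIR10.1 gene table, in which 13436 of 13513 single-gene probe sets were found. Group means were taken over 3 arrays. limma 3.58.1 in R 4.3.3 was fitted with a mean for each of 5 groups (10 residual and 2.31 prior degrees of freedom), with Benjamini-Hochberg adjustment over all tested probe sets, a threshold of 0.05 and two-sided tests. Errors after ± are standard errors of the fitted change. The labels call the replicates biological, and p-values rest on the spread among them.

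The members, function classes, lists and named genes were chosen with earlier results of these data known. Named genes were the 10 with the lowest Col-0 change from 6 h to 10 h, the 5 nearest on each side of each limit, up to 8 rises and 8 falls in rps2 without overlap, and all members with a symbol. The steps were tested on simulated data with the spread of the fit without rps2 10 h replicate 3. That simulation held no array that stood apart, so it does not bear on the counts over all arrays. The deviations of same-numbered rps2 arrays at 10 h and 0 h from their group means had correlations of -0.047, -0.098 and -0.120. The 10 h means include replicate 3, which stands apart, so these values cannot decide whether the arrays were paired. The replicate numbers were not used as pairs in the main fit. Alternatives covered other scalings, variance models, array weights, the replicate block, the limits of the rule and each array left out. No filter on low values was used, since centred values carry no abundance. Promoter and protein sequences were not used here.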

Additional observations from a re-analysis of the deposited data

Results flagged for a closer look

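In 8 of the 67 genes, against 1.34% of all probe sets, every Col-0 10 h array lay below every Col-0 0 h array while every rps2 10 h array, replicate 3 included, lay above every rps2 0 h array. The Col-0 part of this pattern held in all 67 genes, most of it through the rule, so the count and the 1.34% are not like shares. A share of all probe sets for the rps2 part alone was not taken, and nothing follows from the count. Replicate 3 is the array that may be mislabelled. Its margin over the highest rps2 0 h array was smallest in AT5G39940, at -0.03 against -0.04. It was largest in AT2G34200, at 0.12 against -0.15. The difference between the genotypes was not tested, because the Col-0 arrays chose the genes for low values at 10 h. Of the 8, AT2G41770, AT1G05210, AT5G44170, AT2G34200 and AT5G39940 were named after their values were seen. In AT1G17430 the rps2 change was 0.68 over all arrays. In AT2G41090 it was 0.47, with 0.58, 0.52 and 0.13 at 10 h against -0.02, -0.05 and -0.11 at 0 h. In AT3G19400 it was 0.13, with 0.07, 0.08 and 0.19 at 10 h against 0.00, 0.00 and -0.04 at 0 h, and this change did not pass on the deposited scale with or without replicate 3. After repeated quantile normalization it passed in both cases, at 0.264 and 0.291 (limma adjusted p = 0.0492 and 0.0236).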

How the results depend on the processing

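The number of genes that met the limits, 67, was 17 after repeated quantile normalization (15 of the 67) and 5435 on the poly-A scale, where the median late change of all probe sets was -1.10 (62 of the 67 before any limit of 200). It was 32 with an early limit of 0.25 and 13 with a late limit of -1.5. With each Col-0 array left out in turn it ran from 56 to 83, and 41 genes were kept in all 9 counts. Without Col-0 10 h replicate 2 it was 56, and without replicate 1 it was 83.

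In rps2, 0 genes passed over all arrays, also with the replicate block (0), with only the rps2 arrays and without any rps2 array other than 10 h replicate 3. The count (in parentheses, the share of all probe sets called) was 14 with trended and robust variance (17.2%), 40 with array weights (51.1%), 29 after quantile normalization (29.6%) and 12 on the poly-A scale (19.1%), and with 1 array left out in turn it ran from 0 to 39. Without replicate 3 it was 39 (48.1%), also with the replicate block (46.5%) and with median centring (48.0%), 47 after quantile normalization (59.9%), 27 on the poly-A scale (36.0%) and 37 with only the rps2 arrays (46.9%), fits chosen after the data had been seen. The median change, -0.125, was 0.166 on the poly-A scale and 0.143 there without replicate 3. The causes were not tested. In no setting that called a named gene in rps2 did its sign differ from that over all arrays.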
